A study of Mus musculus with 33 samples.

Results

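The tumor-free mammary gland of PTHrP wild-type (WT) mice was followed from 6 to 12 weeks of age. These were the 8 libraries that the labels give as glands of genotype Pthrp wt/wt at weeks 6, 8, 10 and 12, with 2 mice at each age, out of 33 libraries in the series. The 4 glands of weeks 10 and 12 (late) were set against the 4 glands of weeks 6 and 8 (early), and every gene was also fitted with a slope over age and with a separate level at each age. All mice carried an MMTV-Cre transgene and the mTmG reporter and came from lines on or backcrossed to the FVB strain (for mTmG the background is not given in the sources used here), and none of these 8 carried the PyMT oncogene. Cre excises a membrane red fluorescent cassette and leaves membrane GFP, so that cells with a history of Cre are green. After digestion the gland cells were kept in culture with serum before GFP+ cells were sorted. Total RNA depleted of ribosomal RNA (rRNA) was then sequenced, 1 library per mouse. MMTV-driven Cre marks mammary epithelium and can mark other cells too, and the RNA is that of cells after culture. Mating status and stage of the estrous cycle are not given in the sources used here. The 6 glands labelled KO (Pthrp flox/flox, Cre+, mTmG, no PyMT), 2 each at weeks 8, 10 and 12, served for comparison. KO glands of week 6 were not analysed here. The labels give week 12 for 2 of the WT glands although their protocol text speaks of mice up to week 10.

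In this age range a mouse passes through puberty to sexual maturity. Terminal end buds, the bulbous growing tips of the ducts, push through the fat pad under estrogen, growth hormone and IGF1 and disappear once the pad is filled. The mature ducts consist of an inner luminal layer, which includes hormone-sensing cells and progenitors of milk-secreting alveoli, and an outer basal layer of contractile myoepithelium that rests on a basement membrane, and with each cycle progesterone acts through hormone-sensing cells to prompt side branches and small alveolar buds.

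Depth was 35228250 to 130981596 reads per WT gland, with week 10 replicate 1 the deepest, and rRNA made up at most 0.261% of reads. The luminal keratin Krt8 (2800 to 4951 CPM, read counts scaled to a common library size) and the basal keratin Krt14 (854 to 2536 CPM) were abundant in every WT gland, so both epithelial layers were represented. Fibroblast markers differed most among libraries. The summed level of 10 such genes was 37.4 and 270 CPM in the week 6 glands, 81.6 and 834 at week 8, 57.6 and 74.5 at week 10, and 27.6 and 22.4 at week 12. The week 6 and week 8 replicate 2 glands were therefore set aside in an added fit, chosen after the data were seen. In sorted bulk samples, fewer cells of a type and less RNA per cell cannot be told apart. At each age there were 2 mice, so age and any other difference between these pairs of mice (litter, day of preparation, cycle stage) cannot be told apart.

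No gene passed the test between late and early glands. Of 26662 genes tested with edgeR's quasi-likelihood test, 0 (0%) reached an adjusted p below 0.1 with more than 1.5-fold change, and the lowest adjusted p was 0.398. At an unadjusted p below 0.05, 2096 genes (7.86%) differed, 984 higher (3.69%) and 1112 lower (4.17%) in the late glands. In 529 genes (1.98%) all 4 late glands lay above all 4 early ones, and in 523 (1.96%) all lay below, 3.95% in either direction. A log2 fold change above 0 was seen in 51.8% of all genes. DESeq2, run on the same counts, called 284 genes (1.07%), 115 higher and 169 lower. The median log2 fold change of all genes was 0.01. The genes below are the 12 higher and 12 lower ones with the smallest p among genes whose periods did not overlap, that differed more than 1.5-fold, had a mean of at least 1 CPM and did not carry a predicted-gene name (Gm, Rik or an accession). None of these 24 passed edgeR's adjusted test in the main fit of the WT glands. DESeq2 called 24 of the 24, and edgeR called 10 of them with all 33 libraries in 1 fit. The 24 were chosen on the same counts for a small p and full separation, so these calls are no separate support. Of the 92 genes named in this report, edgeR called 14 with no filter on low counts and 3 with a replicate block.

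Among genes that were higher late was Rassf4 (ENSMUSG00000042129, chr6:116633008-116673952 on the minus strand, GRCm38), a member of the Ras-association domain family. It measured 31.0 and 40.0 CPM at week 6, 41.7 and 42.7 at week 8, 68.3 and 70.1 at week 10, and 83.1 and 99.4 at week 12. The values went up with every age step without overlap between ages. Its late minus early log2 fold change was 1.05 ± 0.15 (SE; adjusted p = 0.398). In the KO glands it was at 65.5 to 130 CPM at all ages, so that both KO glands of week 8 lay above both WT glands of week 8. Rspo1, which encodes the secreted Wnt agonist R-spondin 1, measured 0.287 and 0.421 CPM at week 6 and 1.09 and 0.254 at week 8, against 3.90 and 2.10 at week 10 and 3.60 and 3.08 at week 12. All late glands were above all early ones, with a log2 fold change of 2.63 ± 0.47 (adjusted p = 0.413). The polysialyltransferase gene St8sia4 was at 1.09 to 2.12 CPM early and 4.79 to 9.69 late. The bone morphogenetic protein gene Bmp3 was at 3.997 to 9.67 CPM early and 13.9 to 22.4 late. Slc45a3, a sugar transporter gene, measured 20.7 to 25.2 CPM in the early glands, 35.6 and 37.8 at week 10, and 65.3 and 50.1 at week 12. Frat2, whose product binds the kinase GSK3 and favors Wnt signaling, was at 4.44 to 5.82 CPM early and 7.52 to 13.9 late, and Gsta4, a glutathione transferase gene, at 9.81 to 17.7 and 19.5 to 38.7. The other genes chosen by this rule were Ccdc141, Fignl2, Rap1gap2, Csn1s1 and Tspan33, with log2 fold changes between 0.70 (Rap1gap2) and 3.48 (Csn1s1).

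Of the 12 genes that were lower late, the one with the smallest p was Lims2. Lims2, an adaptor of integrin adhesions, measured 11.4 and 10.2 CPM at week 6 and 15.02 and 13.7 at week 8, against 4.24, 4.56, 2.23 and 5.29 in the late glands. The late glands lay below all early ones (log2 fold change -1.63 ± 0.26, adjusted p = 0.413). Col14a1, a fibril-associated collagen gene, was at 9.74 to 27.9 CPM early and 2.78 to 6.77 late (-2.11 ± 0.36). P4ha1, a subunit of the prolyl hydroxylase that modifies collagen, measured 106 and 105 CPM at week 6, 117 and 115 at week 8, 79.1 and 54.7 at week 10, and 38.2 and 50.1 at week 12 (-0.998 ± 0.19). Cav2, a caveolin gene, was at 101 to 125 CPM early and 62.4 to 76.3 late, and the adhesion molecule gene Sdk1 at 8.23 to 19.4 and 4.10 to 5.48. Placental growth factor (Pgf), a VEGF relative, was at 21.7 to 40.2 CPM early and 8.68 to 14.4 late. The chemokine gene Ccl6 was at 2.66, 10.8, 3.55 and 13.1 CPM early and 0.650 to 1.28 late, and its highest values came from the same glands that were highest in fibroblast markers. Fam162a, Vamp5, Ism1, Lpar5 and Sorcs1 completed the set, with log2 fold changes of -0.66 to -1.52. The plot of these genes by gland shows the separation and also how close the nearest early and late glands come.

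**Figure D1:**
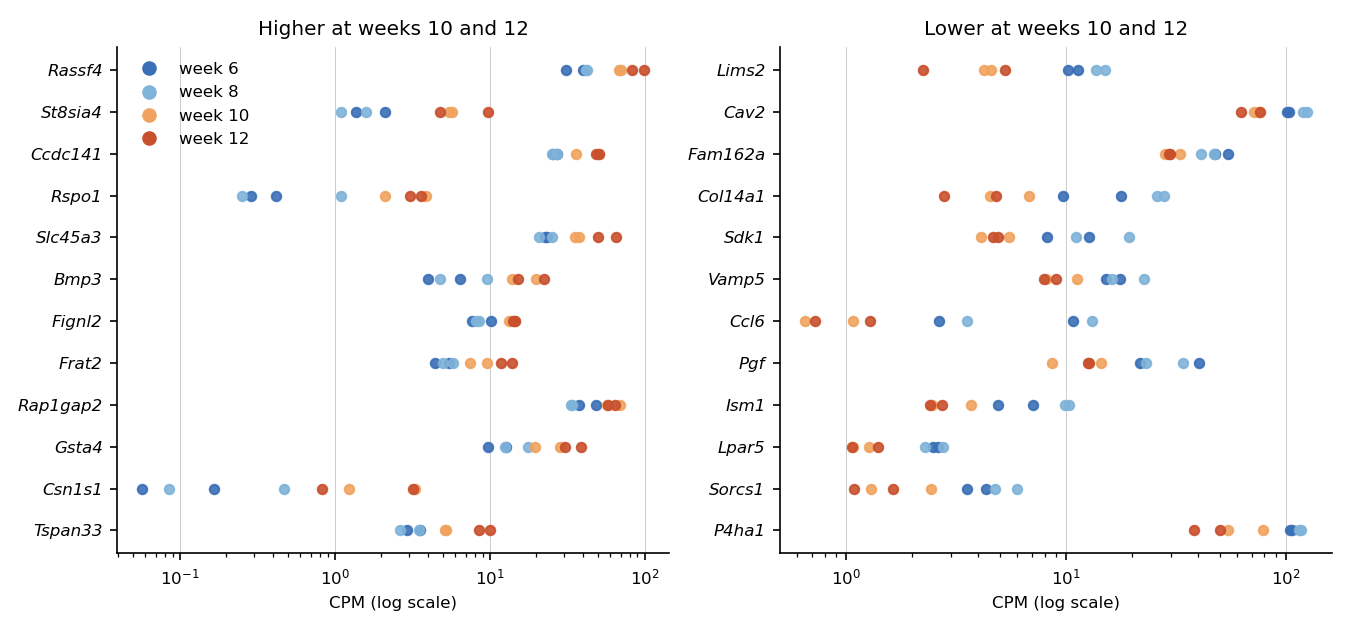
CPM (log scale) of the 12 genes higher and the 12 genes lower in late than in early WT glands, 1 point per gland, colored by age. The 4 late and 4 early glands do not overlap for any of these genes, which the rule required. None passed edgeR's adjusted test in the main fit, and DESeq2 called 24 of the 24, on the same counts that were used to choose them.

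The slope over age called 3 genes (0.0113%), all rising, while 4.78% of genes had a positive and 3.96% a negative slope at an unadjusted p below 0.05 (8.75% together). They were Rassf4, Clec2f and Gm5886. Rassf4 rose by 0.24 ± 0.03 on the log2 scale per week (adjusted p = 0.0681, edgeR). Clec2f, a C-type lectin gene, rose from 0.0718 and 0.0956 CPM at week 6 to 1.505 and 1.90 at week 12 (adjusted p = 0.0938). Gm5886, a predicted gene, had 0 reads in all early glands and in week 10 replicate 2, 3 in week 10 replicate 1, and 22 and 15 at week 12. Clec2f and Gm5886 were named after their values were seen. With 1 gland left out, Rassf4 was called in 1 of 8 fits. Without the 2 glands highest in fibroblast markers its slope was 0.27 (adjusted p = 0.344). The other genes of the rule for the slope were Clca2, Ugt8a, Gsta4, Slc45a3 and Frat2 upward and Ak4, Insyn1, Fam162a, Pqlc3, Acvrl1 and Gys1 downward, none of which passed the test of the slope. Ak4, a mitochondrial adenylate kinase gene, measured 35.2 and 26.5 CPM at week 6, 27.0 and 28.3 at week 8, 20.7 and 14.7 at week 10, and 9.35 and 11.0 at week 12. Gys1, the glycogen synthase gene, was at 67.1 to 73.8 CPM in the early glands, 61.0 and 53.5 at week 10, and 35.7 and 37.97 at week 12. Acvrl1, a receptor gene of the TGF-β family, was at 13.2 to 19.1 CPM early and 5.74 to 11.2 late.

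Genes of the extracellular matrix tended to be lower in late glands. The summed level of the collagen and matrix list was 14561 to 20414 CPM early and 7807 to 15160 late. The periods overlapped, with week 10 replicate 1 above week 6 replicate 1. In 2 members all late glands lay below all early ones (1.96% of all genes). All 20 genes of the collagen and matrix list had a negative log2 fold change (median -1.31, all genes 0.01), 16 had an unadjusted p below 0.05 (4.17% of all genes were lower at that level), and 0 passed edgeR's adjusted test, while DESeq2 called 5 (0.634% of all genes were called lower by DESeq2). Col4a2, a chain of basement membrane collagen IV, measured 584 and 453 CPM at week 6, 744 and 702 at week 8, 425 and 189 at week 10, and 185 and 199 at week 12, with every late gland below every early one. Its partner Col4a1 went from 978 to 1773 CPM early to 386 to 1042 late. Lox, the lysyl oxidase that cross-links collagen, was at 61.4 to 83.5 CPM early and 14.9 to 42.4 late. These 3 genes were picked after their values were seen. The members with the largest differences were the fibrillar collagen genes. Col1a1 measured 7.18 and 63.6 CPM at week 6, 12.0 and 149 at week 8, 8.59 and 18.5 at week 10, and 4.39 and 2.44 at week 12 (-2.77 ± 0.96). Here the early glands were far apart and overlapped the late ones, with most of the early signal in 2 glands. Col3a1 ranged from 0.142 to 320 CPM among early glands alone. Col1a2 and Col6a2 had log2 fold changes of -3.25 and -1.66.

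The fibroblast list, which shares Col1a1, Col1a2 and Col3a1 with the matrix list, was lower as well (10 of 10 negative, 6 at an unadjusted p below 0.05 against 4.17% of all genes, median -2.44). Without the 2 glands highest in fibroblast markers its median was 0.08 with 1 lower member (3.56% of all genes in that fit), and Col3a1 and Dcn had positive values. The matrix list without those glands kept a median of -0.80, with 8 of 20 members lower (3.56% of all genes in that fit) and 1 higher (4.08%) at an unadjusted p below 0.05. The part of the fibroblast markers in the matrix result was not tested further.

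All 10 basal or myoepithelial markers had a negative log2 fold change (median -0.83), 6 were lower at an unadjusted p below 0.05 (4.17% of all genes), and 0 passed edgeR's adjusted test. Their summed level overlapped between periods (9730 to 22212 CPM early, 5641 to 12104 late). Without the 2 fibroblast-rich glands the median was -1.01, with 6 members lower (3.56% of all genes in that fit), and without week 8 replicate 1, the gland highest in basal markers, it was -0.47. Tagln, which encodes the actin-binding protein transgelin, measured 2417 and 1507 CPM at week 6, 3740 and 1547 at week 8, 1432 and 714 at week 10, and 873 and 1269 at week 12 (-1.10 ± 0.32, adjusted p = 0.559). All late glands were below all early ones. Mylk (myosin light chain kinase) was at 136 to 304 CPM early and 50.2 to 154 late, Cnn1 (calponin) at 305 to 956 and 125 to 331, and Oxtr (oxytocin receptor) at 59.7 to 272 and 54.7 to 137, each with overlap. Of the basal keratins, Krt14 had a log2 fold change of -0.37 ± 0.30 and Krt5 of -0.38 ± 0.38, and week 8 replicate 1 was the highest gland for both. With 1 gland left out the values were -0.69 to -0.10 for Krt14 and -0.63 to -0.01 for Krt5. The list of laminins and integrins, which anchor the epithelium to its basement membrane, was negative in all 16 members (median -0.38) and lower at an unadjusted p below 0.05 in 5 (4.17% of all genes). Its summed level overlapped too (13012.5 to 17315.5 CPM early, 10610 to 14559 late). Itgb4, the β4 integrin of hemidesmosomes, was at 577 to 700 CPM early and 351 to 502 late without overlap (-0.61 ± 0.13), and Itga5, a fibronectin receptor chain, at 91.6 to 148 and 42.4 to 113.

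**Figure D2:**
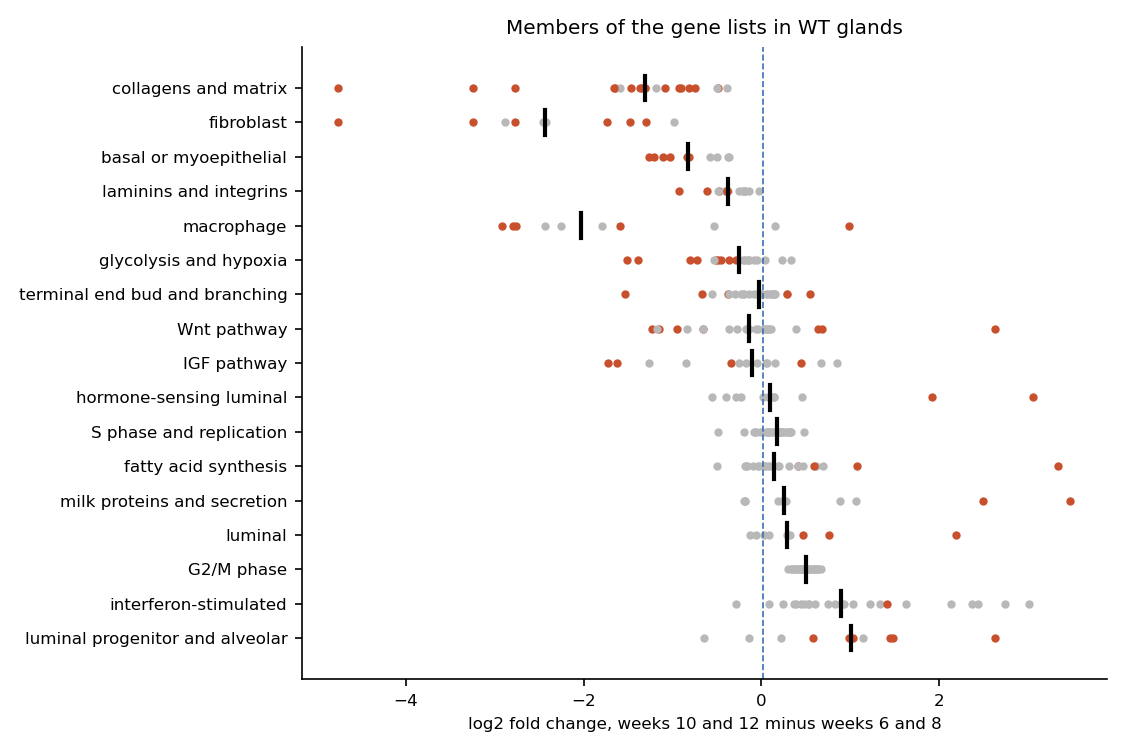
Log2 fold change, late minus early, of every tested member of 17 gene lists in WT glands. Red points had an unadjusted p below 0.05, gray points did not, the black bar is the median of a list and the dashed line the median of all genes. Matrix, fibroblast and basal members lie to the left, with medians of -1.31, -2.44 and -0.83, and luminal progenitor and alveolar members to the right, with a median of 1.005.

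Genes of glycolysis and of the response to low oxygen were lower in part. Of 20, 17 were negative (median -0.25), and 9 had an unadjusted p below 0.05, all lower (4.17% of all genes). For Egln3, Aldoa, Pfkl and Slc2a1 the 4 late glands lay below the 4 early ones, as they did for 1.96% of all genes. Egln3, a prolyl hydroxylase that senses oxygen, measured 5.53 and 3.12 CPM at week 6, 2.39 and 5.65 at week 8, 1.33 and 1.86 at week 10, and 1.67 and 1.52 at week 12 (-1.39 ± 0.31). Bnip3, a mitophagy receptor, was at 13.7 to 38.1 CPM early and 2.93 to 17.6 late, and Car9, a carbonic anhydrase, at 3.51 to 8.38 and 2.18 to 4.24. Pfkl, a phosphofructokinase of glycolysis, was at 179 to 197 CPM early, 154 and 141 at week 10, and 71.0 and 85.4 at week 12. Fam162a and P4ha1, named above, are known to respond to low oxygen too, but were not on this list. Without the 2 fibroblast-rich glands the median of the list was -0.24, with 3 lower members (3.56% of all genes in that fit) and 1 higher one (4.08%) at an unadjusted p below 0.05. The summed level of the list was 7087 to 8065 CPM early and 6513 to 7618 late, with overlap.

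Hypoxia-inducible factors bind DNA at a short core, so the promoters of 3 of these genes are shown with the core ACGTG in capitals on either strand (CACGT on the strand printed is its reverse complement). They run from 250 bases before to 50 after the RefSeq start on GRCm38.p6, at chr12:54203825-54204124 (minus strand) for Egln3, chr16:36071512-36071811 (minus strand) for Fam162a and chr10:59323046-59323345 (plus strand) for P4ha1, and are printed along the strand of the gene.
Egln3: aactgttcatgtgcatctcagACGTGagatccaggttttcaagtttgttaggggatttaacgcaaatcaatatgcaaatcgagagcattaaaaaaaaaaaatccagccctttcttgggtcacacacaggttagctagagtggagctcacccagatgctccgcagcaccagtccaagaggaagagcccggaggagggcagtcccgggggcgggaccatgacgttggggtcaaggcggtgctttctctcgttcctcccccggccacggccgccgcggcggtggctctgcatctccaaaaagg
Fam162a: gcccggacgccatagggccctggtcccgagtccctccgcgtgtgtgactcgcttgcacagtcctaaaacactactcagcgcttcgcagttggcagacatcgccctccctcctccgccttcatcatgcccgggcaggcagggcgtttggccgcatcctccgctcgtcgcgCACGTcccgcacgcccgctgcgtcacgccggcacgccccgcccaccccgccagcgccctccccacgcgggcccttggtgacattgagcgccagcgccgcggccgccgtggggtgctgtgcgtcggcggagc
P4ha1: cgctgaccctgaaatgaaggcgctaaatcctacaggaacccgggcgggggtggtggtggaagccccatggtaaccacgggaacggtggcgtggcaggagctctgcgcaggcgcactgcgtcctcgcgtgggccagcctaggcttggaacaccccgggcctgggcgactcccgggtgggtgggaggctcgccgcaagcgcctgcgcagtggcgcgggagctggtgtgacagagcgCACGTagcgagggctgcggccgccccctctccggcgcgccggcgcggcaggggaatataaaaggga
Each holds 1 match, which is a description of the letters and not a site. The core was found in 19.6% of all 32851 promoters of this length. It was in at least 1 promoter of 13 of the 18 listed genes of glycolysis and hypoxia that had a promoter to search, against 5886 of all 27025 genes. The list was composed of genes of glycolysis and low oxygen, so that share describes the list and not these glands. The 3 promoters were picked by hand, with Fam162a and P4ha1 from outside the list. A part of hypoxia-inducible factors in these levels was not tested.

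Of 10 luminal progenitor and alveolar genes 8 were positive and 2 negative (median 1.005), 6 had an unadjusted p below 0.05, all higher (3.69% of all genes were higher at that level), and 0 passed edgeR's adjusted test. Elf5, the transcription factor that directs alveolar fate, measured 6.13 and 8.40 CPM at week 6, 5.62 and 10.47 at week 8, 14.97 and 9.33 at week 10, and 32.6 and 26.6 at week 12. Its level was highest at week 12, and week 10 replicate 2 lay within the early range (1.45 ± 0.37, adjusted p = 0.551). Ltf (lactoferrin) was at 9.72 to 24.8 CPM early and 22.6 to 71.1 late, and Sorbs2, an adaptor of the actin cytoskeleton, at 36.6 to 84.5 and 67.8 to 183. With Rspo1 above, these are the members with the largest differences. Without the 2 fibroblast-rich glands the median was 1.02, with 5 members higher (4.08% of all genes in that fit). The summed level of the list did not separate the periods (693 to 968 CPM early, 879 to 1291 late).

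Of 10 general luminal markers 8 were positive (median 0.29), and 3 were higher at an unadjusted p below 0.05 (3.69% of all genes). The median was 0.55 without the 2 fibroblast-rich glands, with 5 higher (4.08% of all genes in that fit). Muc1, the mucin of the apical surface, was at 0.663 to 1.82 CPM early, 2.13 and 2.37 at week 10, and 11.5 and 7.09 at week 12 (2.18 ± 0.57). The epithelial transcription factor Ehf was at 47.6 to 89.3 CPM early and 104 to 136 late, again without overlap, and the claudins Cldn3 and Cldn7 had log2 fold changes of 0.47 and 0.32. The keratin Krt8 had one of 0.03 ± 0.21, with overlapping groups. Its sign was negative in 4 fits with other settings and in some with 1 gland left out.

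The casein genes other than Csn3 were at 3.32 CPM or less in every gland, while the milk list as a whole, with Mfge8, Btn1a1 and Csn3 among others, summed to 349 to 479 CPM early and 351 to 475 late. Csn1s1, encoding αS1-casein, measured 0.168 and 0.0574 CPM at week 6, 0.474 and 0.0846 at week 8, 3.32 and 1.24 at week 10, and 0.827 and 3.22 at week 12. These were 7, 3, 20 and 4 reads in the early glands and 408, 46, 39 and 136 in the late ones, without overlap (3.48 ± 0.70, adjusted p = 0.469). The β-casein gene Csn2 had 0 to 2 reads in each early gland and 1 to 10 in each late one, which does not allow a fold change. Of the 10 milk genes tested, 7 were positive (median 0.25) and 2 were higher at an unadjusted p below 0.05 (3.69% of all genes). Btn1a1, Csn3 and Mfge8 had log2 fold changes of 0.89, -0.20 and -0.19. Caseins are induced by prolactin through STAT5, which binds TTCNNNGAA. The Csn1s1 promoter (RefSeq, GRCm38.p6, chr5:87665958-87666257, plus strand) is shown because it was the milk gene with the clearest separation, and its 1 match to this motif, in capitals, begins 100 bases before the start.
Csn1s1: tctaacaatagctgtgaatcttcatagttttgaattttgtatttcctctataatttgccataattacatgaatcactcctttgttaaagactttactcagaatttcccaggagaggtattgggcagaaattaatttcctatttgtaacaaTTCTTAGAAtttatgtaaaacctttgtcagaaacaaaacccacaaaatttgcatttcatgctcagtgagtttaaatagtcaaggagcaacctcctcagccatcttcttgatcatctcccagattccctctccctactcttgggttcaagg
The motif reads the same on both strands, and 8.30% of all promoters of this length held it.

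In fatty acid synthesis, 15 of 22 genes were positive (median 0.14) and 4 had an unadjusted p below 0.05, all higher (3.69% of all genes). Scd1, the desaturase that makes monounsaturated fatty acids, measured 415 and 371 CPM at week 6, 411 and 451 at week 8, 496 and 423 at week 10, and 697 and 864 at week 12. The week 12 glands were the highest, and week 10 replicate 2 lay within the early range (0.59 ± 0.21, adjusted p = 0.598). Elovl6, a fatty acid elongase, was at 31.0 to 52.2 CPM early, 57.8 and 28.04 at week 10, and 127 and 154 at week 12. Fasn and Acss2 had log2 fold changes of 0.62 and 0.69 (0.43 to 0.83 and 0.28 to 1.01 with 1 gland left out). Thrsp, a regulator of lipid synthesis whose low level kept it out of the rule for named genes, had 10 reads over the 4 early glands and 143 over the late ones, with groups apart, and was named after its values were seen. In cholesterol synthesis 21 of 22 genes were positive (median 0.26), with 2 higher at an unadjusted p below 0.05 (3.69% of all genes). Without the 2 fibroblast-rich glands the median was 0.11 with 0 such members (4.08% of all genes in that fit).

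The hormone receptors Pgr and Esr1 overlapped between the periods. Pgr (progesterone receptor) measured 15.4 and 69.6 CPM at week 6, 19.1 and 118 at week 8, 47.4 and 94.4 at week 10, and 14.4 and 12.4 at week 12. Esr1 (estrogen receptor α) measured 10.1 and 23.8, 10.8 and 34.5, 14.7 and 34.6, and 8.309 and 7.30 CPM at the same ages. At weeks 6, 8 and 10 the replicate 2 gland was the higher one for both genes, and the week 12 glands were the lowest for both genes. Areg (amphiregulin), an estrogen target needed for ductal growth, was at 8.79 to 99.5 CPM early and 5.78 to 81.4 late. Of the 12 hormone-sensing genes 2 had an unadjusted p below 0.05, both higher (3.69% of all genes), namely Calca and Tnfsf11, under 1 CPM on average, and the median was 0.09. It was 0.97 with 3 higher members (4.08% of all genes in that fit) without the 2 fibroblast-rich glands, and -0.31 to 0.25 with 1 gland left out. The log2 fold change of Cited1 was 0.46 ± 0.89. For estrogen and progesterone targets the median of 11 genes was -0.26, with 2 higher (again Calca and Tnfsf11, 3.69% of all genes) and 1 lower (Cxcl12, 4.17%) at an unadjusted p below 0.05, and 0.25 without the 2 fibroblast-rich glands. Pthlh, the gene that encodes PTHrP, measured 6.41 and 3.08 CPM at week 6, 7.06 and 3.45 at week 8, 7.53 and 4.13 at week 10, and 8.22 and 5.71 at week 12 (0.36 ± 0.32, adjusted p = 0.822), and of 12 genes of PTHrP signaling and cAMP response 3 were higher (3.69% of all genes) and 0 lower (4.17%) at an unadjusted p below 0.05 (median 0.26).

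Lists tied to ductal growth were mixed. In the list for terminal end buds and branching, 11 genes were positive and 13 negative (median -0.02). Mmp2, a gelatinase that clears matrix ahead of growing ducts, measured 37.9 and 84.2 CPM at week 6, 128 and 148 at week 8, 56.2 and 30.3 at week 10, and 21.1 and 29.8 at week 12 (-1.53 ± 0.42). It peaked at week 8. Slit2, a guidance cue, had a log2 fold change of -0.67 and Ntn1, a netrin gene, of 0.54. In the IGF pathway Igf1 was at 3.56 to 11.5 CPM early and 0.948 to 3.84 late, and Igfbp2 at 208 to 360 early, 226 and 83.9 at week 10, and 51.0 and 25.3 at week 12. The median of the 14 genes was -0.11, with 3 lower (4.17% of all genes) and 1 higher (3.69%) at an unadjusted p below 0.05. Of 25 Wnt genes, 4 were lower (4.17% of all genes) and 3 higher (3.69%) at an unadjusted p below 0.05 (median -0.14). Lgr5, a receptor for R-spondins, was at 7.78 to 21.4 CPM early and 5.15 to 8.44 late, and Nkd1, a target and inhibitor of the pathway, at 2.80 to 6.28 and 1.64 to 3.36, while Rspo1 was higher late. Wif1 had a log2 fold change of -1.17 ± 0.53.

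Mki67, the Ki67 proliferation antigen, measured 66.6 and 49.1 CPM at week 6, 179 and 75.5 at week 8, 257 and 29.3 at week 10, and 192 and 79.9 at week 12 (0.59 ± 0.61, adjusted p = 0.839). At each age the replicate 1 gland was the higher one, for the G2/M sum too. All 30 G2/M genes were positive (median 0.50), but 0 had an unadjusted p below 0.05. Their summed level was 953, 494, 2261 and 810 CPM early and 2777, 336, 2330 and 869 late, and without the 2 fibroblast-rich glands the median was -0.02. With 1 gland left out it was 0.10 (without week 10 replicate 1) to 1.11 (without week 8 replicate 1). Plk1, Ttk, Bub1b and Cdc20, all mitotic regulators, had log2 fold changes of 0.62 to 0.67. Of 30 S phase genes 24 were positive (median 0.17), with 0 at an unadjusted p below 0.05. This median was -0.03 (without week 10 replicate 1) to 0.34 with 1 gland left out, and -0.07 without the 2 fibroblast-rich glands. For H19 (-0.10 ± 0.41) and Igf2 (at most 0.170 CPM in any gland), imprinted genes of growth, the periods overlapped.

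The interferon-stimulated list depended on single glands. Its summed level was 400, 852, 429 and 1164 CPM early, 2590 and 1070 at week 10 and 299 and 282 at week 12. Its 25 genes had a median log2 fold change of 0.89, which turned to -0.37 without week 10 replicate 1 and was 2.03 without the 2 fibroblast-rich glands. Ifit1, an antiviral effector, measured 115 CPM in that gland and 0.166 to 15.9 in the other 7. Mx1, Rsad2 and Ifit3 were also highest there, with 12.7, 64.6 and 9.87 CPM.

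**Figure D3:**
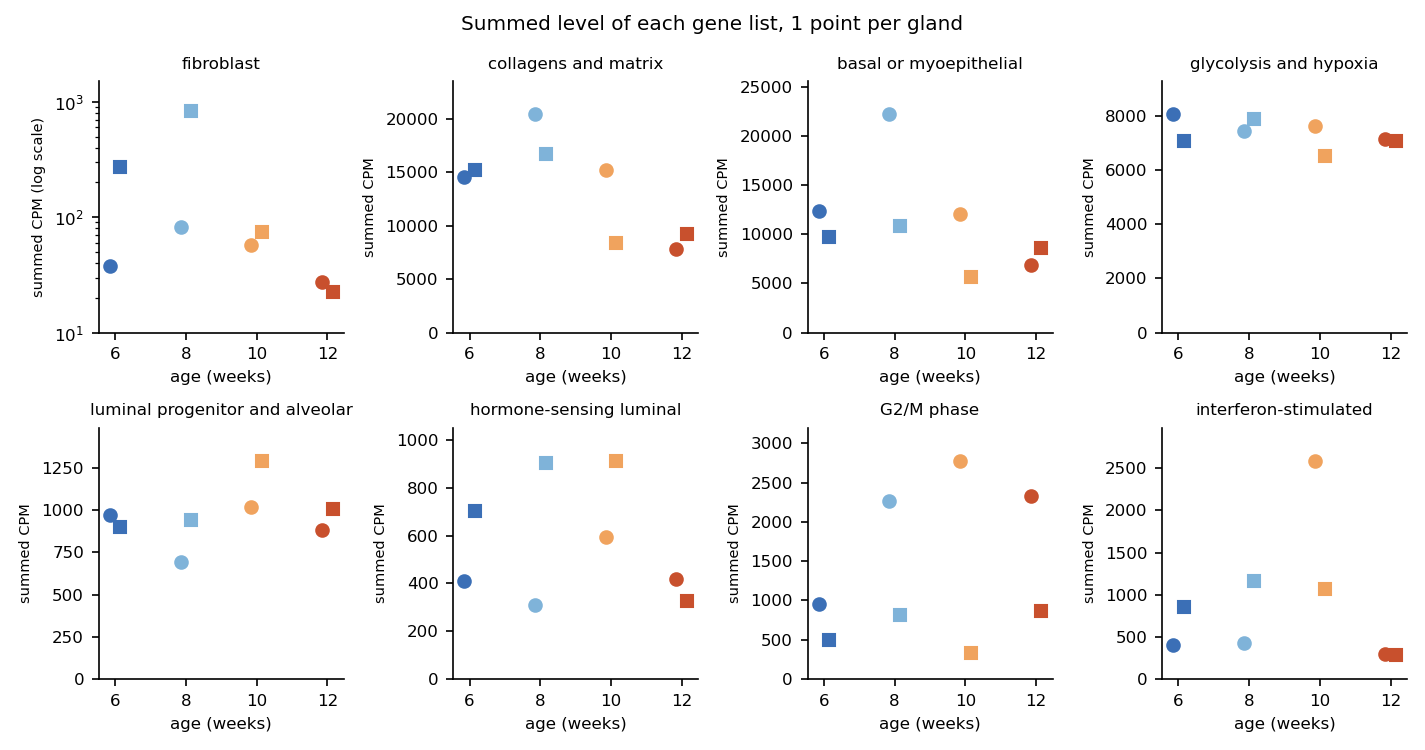
Summed CPM of 8 gene lists in each WT gland by age, circles for replicate 1 and squares for replicate 2 (log axis for the fibroblast list only). The fibroblast sum is highest in the week 6 and week 8 replicate 2 glands (270 and 834 CPM), G2/M is higher in the replicate 1 gland at each age, and the interferon list peaks in week 10 replicate 1 (2590 CPM).

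Markers of other cells that the sort could have let through were present at levels that differed among glands. Of the 10 fibroblast markers 7 were detected in every gland, with the highest values of Col1a2, Col1a1 and Dcn at 180, 149 and 81.4 CPM, and Col3a1, Lum and Dpt were at 0 in 1, 3 and 2 glands. Apart from Cd14, which luminal progenitors share, the summed macrophage list was 7.04 to 51.6 CPM early and 7.42 to 12.4 late, highest in week 8 replicate 2, and 4 of its 10 genes were lower (4.17% of all genes) and 1, Cd14, higher (3.69%) at an unadjusted p below 0.05 (median -2.03, and 0.09 without the 2 fibroblast-rich glands). The macrophage genes Csf1r and Cd68 were detected in every gland (2.58 to 7.68 and 2.11 to 5.69 CPM), and C1qa and C1qb were at 0 in 1 gland each. Summed endothelial markers were at 20.2 to 96.0 CPM early and 16.9 to 90.2 late, lymphocyte markers at 1.70 to 7.13 and 0.972 to 3.07, adipocyte markers at 2.56 to 17.5 and 3.76 to 9.79, and erythroid markers at 1.24 or less. Their medians were -0.22, 0.44, -0.24 and -0.06, and 1.22, 1.62, 0.45 and 0.90 without the 2 fibroblast-rich glands. Skeletal muscle markers summed to 9.65 to 69.9 CPM with no order by age (median 0.23), and the Schwann and nerve list to 169 to 464 CPM (median 0.02), largely from Sox10, Mbp and Pmp22, which mammary epithelium also expresses. Both week 12 glands (464 and 417 CPM) lay above the other 6 (169 to 295) for this list. Their part in the results above was not tested beyond leaving out the 2 glands.

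The medians of the remaining lists were -0.43 for chemokines and cytokines and -0.47 for EMT factors. Of the 14 EMT genes 13 were negative, with 4 lower (4.17% of all genes) and 1 higher (3.69%) at an unadjusted p below 0.05. Other medians were -0.27 for EGF ligands and ErbB receptors and -0.12 for the Notch pathway and for the mitochondrial genome. Those of the core clock and of ATF4 and stress response were -0.07 and -0.06. Medians were 0.0012 for MHC and antigen presentation, and 0.02 for CDK inhibitors and senescence and for immediate early and heat shock genes. For postnatal growth and imprinted genes the median was 0.05, and for antimicrobial and acute phase genes 0.21. Without the 2 fibroblast-rich glands the median was -0.13 for chemokines and cytokines and -0.21 for EMT factors. In that fit 1 EMT member was lower (3.56% of all genes) and 1 higher (4.08%) at an unadjusted p below 0.05.

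When each age had its own level, 26 genes (0.0975%) differed between ages at an adjusted p below 0.1 (8.17% at an unadjusted p below 0.05), and most differences were not gradual. These genes were named after their values were seen. In 14 genes both week 12 glands lay above all others, and in 3 both lay below. Tc2n measured 10.1 and 12.0 CPM at week 6, 6.99 and 8.40 at week 8, 12.0 and 11.5 at week 10, and 54.1 and 48.6 at week 12 (adjusted p = 0.00811, edgeR). The imprinted gene Peg3 was at 27.6 to 66.1 CPM up to week 10 and at 188 and 273 at week 12 (adjusted p = 0.0411). Cd14 was at 56.3 to 87.1 and then 146 and 169 CPM. The heat shock gene Hspa1b was at 60.4 to 94.9 and then 245 and 200 CPM. The opposite pattern was seen for Slc16a3, the lactate exporter, which measured 73.2 and 77.2 CPM at week 6, 68.9 and 78.3 at week 8, 42.7 and 32.3 at week 10, and 4.60 and 9.29 at week 12 (adjusted p = 0.0672), and for Pfkl and Tph1, the latter encoding tryptophan hydroxylase, at 26.2 to 55.1 and then 4.22 and 4.65 CPM. In the KO glands several of these were also uneven. Tc2n was at 36.5 and 60.3 CPM in the 2 KO glands of week 8 and at 10.4 to 30.2 at weeks 10 and 12, and Peg3 at 154 and 543 CPM at week 8 and 50.9 to 147 after it.

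Other genes set weeks 8 and 10 apart. In 7 genes the week 8 and week 10 glands lay above those of weeks 6 and 12, and in 3 below (Rps18, Peg3 and Ndrg4, of which Peg3 and Ndrg4 are also among the 14 genes highest at week 12). Rps18-ps6, named as a pseudogene of the ribosomal protein gene Rps18 although its type in the table is protein coding, measured 0.0239 and 0.0191 CPM at week 6, 211 and 216 at week 8, 150 and 196 at week 10, and 0.254 and 0 at week 12 (adjusted p = 0.00190). Rps18 itself (chr17:33951999-33956001, minus strand) measured 544 and 507, 223 and 228, 165 and 209, and 540 and 542 CPM (adjusted p = 0.0486). The reads of Rps18 and its 3 copies ps3, ps5 and ps6 summed to 379 to 544 CPM in all 8 glands. The copies held 56.5% to 57.9% of that sum at weeks 8 and 10 and at most 0.188% at weeks 6 and 12. In KO glands of all ages they held 23.7% to 25.6%, except for 48.7% in week 12 replicate 1. Since near-identical copies share reads, the level of each copy is uncertain. The same split between ages was seen for Rps18-ps5, Rps18-ps3, Glo1-ps, Ephb6 and the MHC class II genes H2-Ab1 and H2-DMb2. Of these, the MHC genes lie on chromosome 17, as Rps18 does. H2-Ab1 (chr17:34257689-34269419) was at 0.814 and 0.937 CPM at week 6, 4.55 and 5.63 at week 8, 4.62 and 5.34 at week 10, and 0.848 and 0.569 at week 12. Of the 26 genes, only Rps18-ps5 and Rps18-ps6 were called in all 18 alternative fits. Family or genetic background of the mice and age cannot be told apart here.

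**Figure D4:**
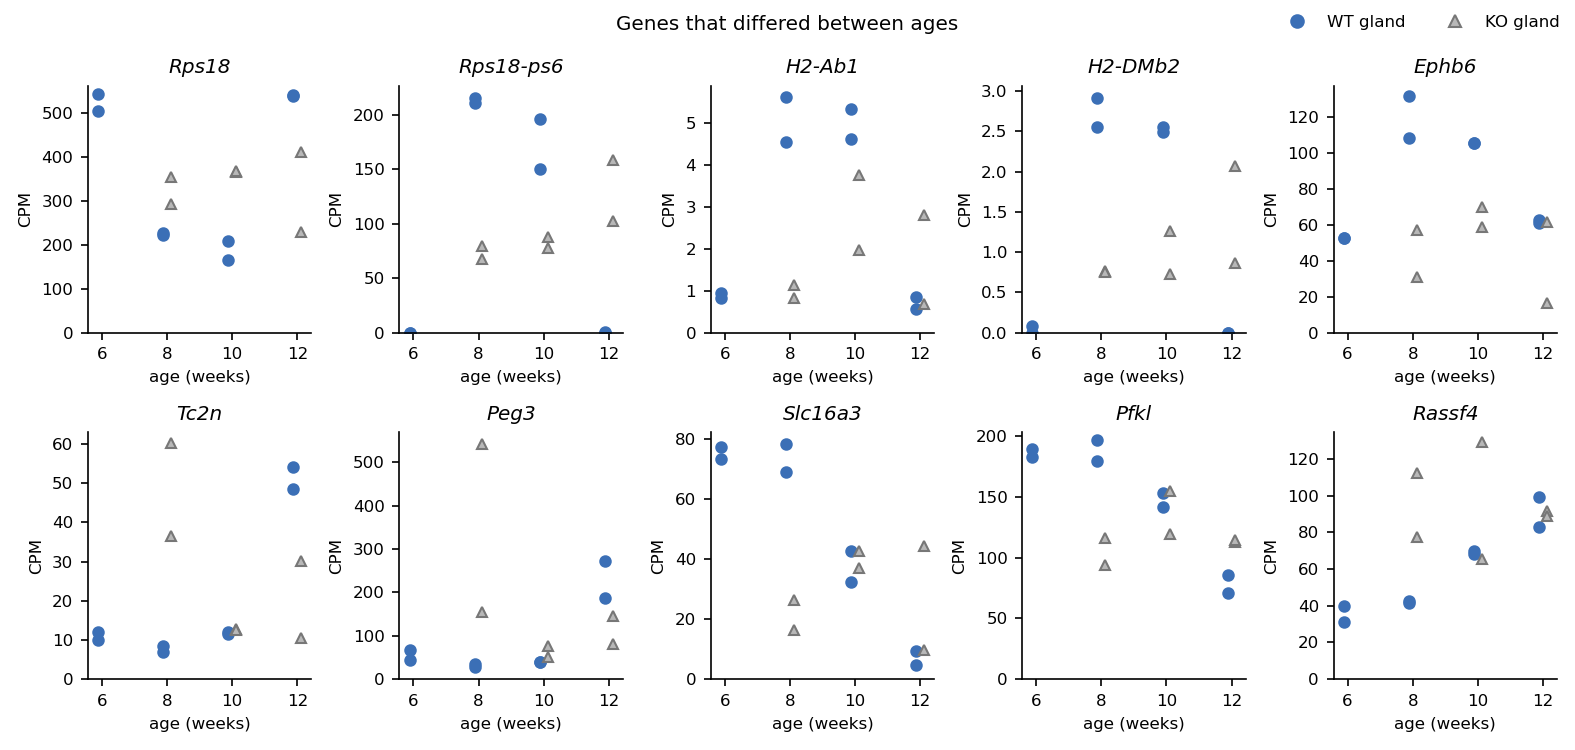
CPM by age of 9 of the genes that differed between ages in WT glands and of Rassf4, called for its slope (blue circles), with the KO glands beside them (gray triangles, no KO gland at week 6). Rps18, Rps18-ps6, H2-Ab1, H2-DMb2 and Ephb6 set weeks 8 and 10 apart from weeks 6 and 12, Tc2n, Peg3, Slc16a3 and Pfkl set week 12 apart, and Rassf4 rises over all 4 ages.

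The first principal component of the 500 most variable genes took 47.5% of the variance and did not separate late from early glands (exact permutation test, two-sided, p = 0.429). Its largest loadings included Col3a1, Mmp3 and Saa3, and the scores ran from -30.4 in week 8 replicate 2 to 20.1 and 27.6 in the 2 week 12 glands, the highest of the 8. A difference between the 4 ages was not tested on the components. The third component, with 10.2%, separated the periods completely (p = 0.0286, the smallest that 4 against 4 allows, adjusted p = 0.114 over 4 components, exact permutation test). With components computed anew after leaving out 1 gland, the third did not separate the periods without week 8 replicate 1 (exact permutation p = 0.171), week 10 replicate 1 (0.686), week 10 replicate 2 (0.171) or week 12 replicate 2 (0.771). The order of components can change between such fits. Without week 12 replicate 2 the fourth separated the periods (exact permutation p = 0.0286), and without week 10 replicate 1 the second had the largest difference (exact permutation p = 0.0571). Predicted genes and pseudogenes were among the largest loadings of the third component of all 8 glands.

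In the glands labelled KO, weeks 10 and 12 could be set against week 8 only. Pthlh was at 2.72 to 8.308 CPM there and at 3.08 to 8.22 in the 8 WT glands, so the ranges overlapped and this count, taken over the whole gene, did not check the KO label. The KO fit called 130 of 28716 genes (0.453%), 27 higher (0.094%) and 103 lower (0.359%), while the same ages in WT glands called 2 (0.00696%), Rps18-ps5 and Rps18-ps6, both lower. The difference between the genotypes' changes was called for 157 genes (0.547%), 112 higher (0.39%) and 45 lower (0.157%) in WT. At an unadjusted p below 0.05 the shares of all genes higher and lower were 2.54% and 4.02% in WT (6.56% together), 4.9% and 6.86% in KO (11.8% together), and 7.18% and 5.75% for the difference (12.9% together). Of the genes chosen by rule for the difference or the slope, 3 were among them, Slc45a3, Sdk1 and Ak4. Others were Cd14, Pfkl, Peg3, Tc2n, Hspa1b, Btn1a1, H2-DMb2, Thrsp and the Rps18 copies ps5 and ps6. Most of these genes had been named for their change in WT glands, which is also part of this difference. Their calls are therefore no separate support for a difference between genotypes. Slc45a3 had a log2 fold change from week 8 of 1.01 ± 0.23 in WT and -0.66 ± 0.22 in KO glands (difference 1.67 ± 0.31, adjusted p = 0.0799). For Sdk1 the values were -1.67 ± 0.29 and 0.85 ± 0.32 (difference -2.51, adjusted p = 0.0630), and for Ak4 -1.03 ± 0.18 and 0.37 ± 0.19 (difference -1.41, adjusted p = 0.0765). Over the same ages S phase genes had medians of -0.05 in WT and 1.33 in KO glands, where 30 of 30 were higher at an unadjusted p below 0.05 (4.9% of all genes), and G2/M genes 0.06 and 2.03 (28 of 30 in KO). The matrix list had -1.58 and 0.17, the basal list -1.14 and 0.13, and the luminal progenitor and alveolar list 0.85 and 0.04, and whether any of these medians differed was not tested. rRNA took 0.0224% to 18.8% of reads in KO glands, and without the 2 KO glands with the highest share, week 8 and week 12 replicate 2, the KO fit called 2 genes and the difference 9. Depth and rRNA moved with these libraries, and their part in the counts was not tested further.

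**Figure D5:**
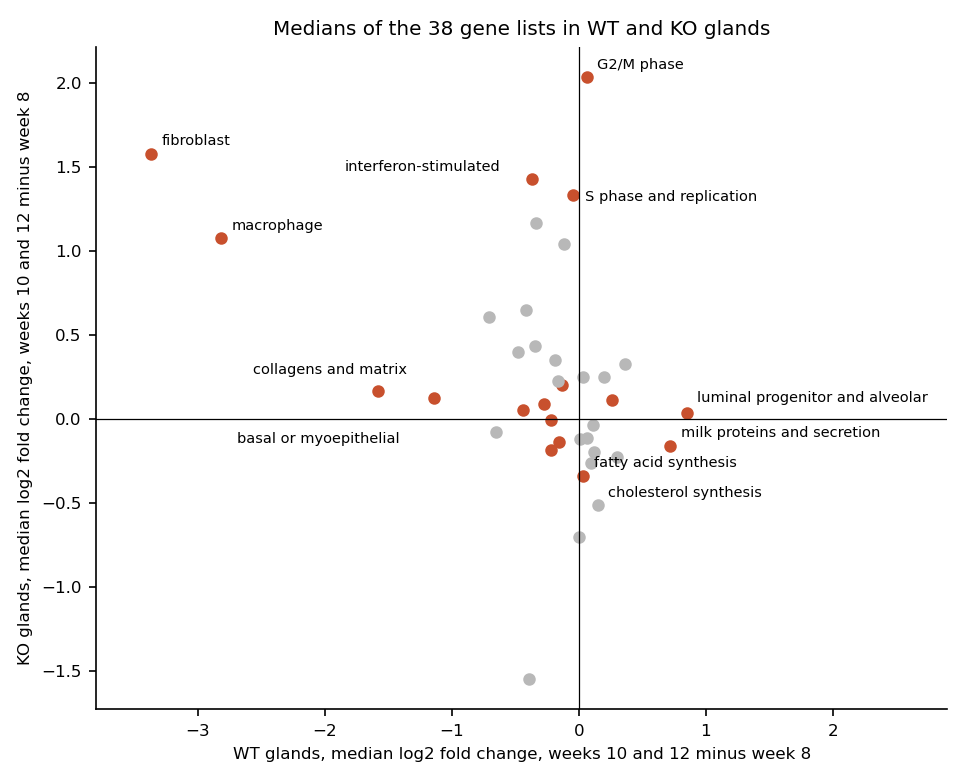
Median log2 fold change of each of 38 gene lists from week 8 to weeks 10 and 12 in WT glands (horizontal axis) and KO glands (vertical axis). Red points are lists shown in the plot of list members and gray points the others. The G2/M and S phase lists lie high on the KO axis (2.03 and 1.33) and near 0 on the WT axis, and the matrix and basal lists lie left on the WT axis (-1.58 and -1.14) and near 0 on the KO axis.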

How the data were processed

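Total RNA, depleted of rRNA, was sequenced from sorted GFP+ mammary cells of 8 WT and 6 KO glands. The authors aligned reads with HISAT to GRCm38 (Gencode annotation), discarded duplicate reads (Picard 1.128) and took gene counts from HTSeq, with DESeq2 in R 3.6.2 for their tests. The strand setting is not given in the sources used here, so overlapping and antisense genes and near-identical copies are uncertain. The deposited raw counts were the main data. The second deposited table holds normalized signal (counts divided by size factors), from which whole reads were recovered (100% of values within 0.01 reads, over 35313 gene rows) for an alternative. Among the raw counts, 111 rows that are not genes, with 0.0753% of reads, were left out.

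A gene entered a fit if its libraries held 10 reads or more in all, and was tested with edgeR 4.0.16 (TMM, quasi-likelihood test, R 4.3.3), Benjamini-Hochberg adjusted over all genes tested. A gene was called at an adjusted p below 0.1 and over 1.5-fold change. CPM are TMM-scaled, and a fold change is late minus early on the log2 scale. DESeq2 1.42.0 and limma 3.58.1 (voom) were alternatives, as were other filters, normalization, a replicate block, thinned reads, all 33 libraries in 1 fit and leaving out each gland. The tumors entered only that fit of 33. Depth was 35228250 to 130981596 reads per WT gland. Labels call the 2 glands of an age biological replicates, and p-values measure the spread between glands: within a period for late against early (the 2 ages of a period included), around the line for the slope, and within an age for the test over ages. Each script was tested on simulated counts. The principal components used the 500 most variable genes and exact permutation tests.

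Named genes were (a) the 12 highest and 12 lowest of called genes, filled by the smallest unadjusted p among genes over 1.5-fold with a mean of at least 1 CPM and no overlap of periods, (b) likewise 6 rising and 6 falling by slope, both without predicted-gene names (Gm, Rik or an accession), (c) 13 genes given in any case, and (d) the 2 to 4 members of each list with the largest change at 1 CPM or more. Members and lists were chosen with earlier results of these data known. Promoter sequences are from RefSeq.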

Additional observations from a re-analysis of the deposited data

Results flagged for a closer look

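In groups of 4 glands, the highest or lowest value stood apart (by Dixon's test of its gap to the nearest other gland) for 6 measures. Chance gives such a value in about 1 of 20 groups. The test was run in both periods on library measures, components, the sums of 38 lists and the genes named by rule. In a search that wide, 6 such values are no more than chance would give. Among the late glands these were the 130981596 reads of week 10 replicate 1, its 21835 genes with at least 5 reads, its summed 14559 CPM of laminin and integrin genes, the 0.261% rRNA of week 12 replicate 1 and the 36.2 CPM of Ccdc141 in week 10 replicate 2. Among the early glands it was the summed 1669 CPM of the IGF pathway in week 6 replicate 1. List sums and gene levels were tested on the log2 scale, and library measures and component scores as they are.

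For 157 genes the change from week 8 to weeks 10 and 12 differed between WT and KO glands (interaction term, edgeR, adjusted over all genes). The named genes among them had adjusted p-values from 0.000221 (Rps18-ps5) to 0.0841 (Pfkl). Most had been named for their change in WT glands, which is also part of this difference. The difference (WT minus KO, log2) was positive for Thrsp (4.89), Peg3 (3.64), Amigo2 (3.27), Tc2n (3.26), Btn1a1 (2.79), Sbsn (2.59), Mgam (2.14), Tprn (1.89), Nupr1 (1.86), Tacc2 (1.85), Hspa1b (1.80), Cd14 (1.69), Slc45a3 (1.67) and Dapk1 (1.49). It was negative for Rps18-ps6 (-5.96), H2-DMb2 (-5.71), Rps18-ps5 (-4.37), Sdk1 (-2.51), Gins2 (-2.06), Ak4 (-1.41) and Pfkl (-1.05). Without the 2 KO glands with the most rRNA, 9 genes were called.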

How the results depend on the processing

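Counts of called genes depended on the tool and filter, and the cause was not tested. Late against early, where 0 genes were called, DESeq2 called 284, no filter 19, all 33 libraries in 1 fit 22 and 4 age coefficients 4. For the slope (3 genes) the counts were 518 with DESeq2, 199 with voom, 116 with no filter, 97 with all 33 libraries and 0 with filterByExpr. For any difference between ages (26 genes) they were 1312, 89, 2782, 179 and 16 in the same order. For the KO glands (130 genes) they were 1029 with DESeq2, 1620 with no filter and 616 with all 33 libraries, and for the difference between genotypes (157 genes) 1421, 2215 and 697, and 294 with filterByExpr. Chosen after seeing the data, leaving out the 2 glands highest in fibroblast markers gave 1, 0 and 6 calls for the 3 WT tests, and leaving out the 2 KO glands highest in rRNA gave 2 for KO and 9 for the difference. With 1 gland left out the counts were 0 to 5 for late against early (5 without week 8 replicate 1, 3 without week 10 replicate 1) and 0 to 6 for the slope (6 without week 10 replicate 2, 0 without any other). They were 4 to 41 for any age (41 and 40 without week 10 replicate 1 and 2, 10 or fewer without any other), 0 to 1482 for KO and 3 to 721 for the difference, both moved over 1.5 times by each omission.

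Glands with the same replicate number correlated in their deviations from the age means with r of 0.300, 0.166, 0.0503, 0.362, 0.0986 and 0.145 for the 6 pairs of ages, not all over 0.1, and share only a number. A replicate block gave 5 calls for late against early, 5 for the slope, 445 for any age, 126 for KO and 202 for the difference, and a log2 fold change of 0.0083 for Pgr.

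Of the 38 list medians, 14 changed sign without the 2 fibroblast-rich glands and 18 with some gland left out. Of 1838 pairs of a named gene and a setting, 1803 kept the direction, and DESeq2 called 41 of the 92 named genes. The sign turned with voom for Krt8 (-0.17), Cited1 (-0.74), Mx1 (-0.16), Rsad2 (-0.12), Ifit3 (-0.47) and Ifit1 (-1.91), with all 33 libraries for Krt8 (-0.0116), Cited1 (-0.18) and Ifit1 (-0.38), and with 4 age coefficients for the same genes (-0.0130, -0.18 and -0.37). Without the 2 fibroblast-rich glands it turned for Pthlh (-0.0701), Areg (0.46), Esr1 (0.64), Pgr (1.29), H19 (0.22), Krt8 (-0.0290), Col3a1 (3.96), Dcn (1.74), Igfbp5 (0.35) and Csn3 (0.0439). With 1 gland left out the log2 fold change was -1.73 to 0.20 for Areg, -0.75 to 1.24 for Cited1, -0.97 to 0.12 for Esr1, -0.52 to 0.17 for H19, -0.25 to 3.34 for Ifit1, -0.11 to 0.16 for Krt8, -0.54 to 3.98 for Mx1 and -1.16 to 0.27 for Pgr. With 2 mice per age, low genes are limited by few reads.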
